A study of Mus musculus with 6 samples.

Results

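Transfer RNAs carry amino acids to the ribosome, where the anticodon of each tRNA reads a codon of the mRNA. The tRNAs for leucine (Leu), serine (Ser) and selenocysteine (SeC) form the class II tRNAs, which have a long variable arm between the anticodon arm and the T arm where other tRNAs have a short loop. The long arm is an identity element for seryl-tRNA synthetase, which charges serine tRNA and also places serine on selenocysteine tRNA before that serine is turned into selenocysteine. In cells, angiogenin and related ribonucleases cut tRNAs in the anticodon loop, and the resulting fragments circulate in serum.

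Reads on these tRNAs were followed in 6 small RNA libraries from mouse serum, 2 for each of 3 library preparation kits: TruSeq small RNA (Illumina), TailorMix miRNA (Seqmatic) and NEBNext Multiplex Small RNA (New England Biolabs). Serum came from healthy male and female mice of strain 129/SVj aged 2 to 9 months, RNA was isolated with the miRNeasy serum/plasma kit, and libraries were size-selected at 125 to 153 bp. No treatment or genotype separated the groups, which differed in the kit alone as far as the labels go. Each serum sample came from an individual mouse, numbered 1 or 2 within a kit, and which mouse gave which library is not stated, so that the p-values below measure only the spread between these libraries, which may be technical.

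The members were the reads annotated as tRNA under a gene whose name holds Leu, Ser or SeC. They comprised 50 of the 403 tRNA gene names with reads, 3 of 21 tRNA types and 10 of 49 anticodons. Between 385 and 632 distinct sequences per library carried these names. The libraries held between 4911281 and 25976737 tRNA reads. Depth moved with the kit, since the NEBNext libraries had 25976737 and 16767212 tRNA reads, the TruSeq libraries 11252517 and 9119851, and the TailorMix libraries 4911281 and 5064283. All levels below are given relative to a library's tRNA reads, as a percentage or as RPM (reads per 1000000 tRNA reads), and say nothing of absolute amounts in serum. Each sequence is known here by its number in a library's list and the name of a single gene.

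The grouping was checked against the gene lengths in RefSeq on the mouse assembly GRCm38.p6. Of 25 nuclear Leu genes, 21 were 82 or 83 bases long and the other 4, all with anticodon CAA, were 105 to 107 bases. LeuCAA genes are known to hold an intron. Of 22 nuclear Ser genes, 21 were 82 bases long and 1, n-TSgga1, was 73 bases. None of the 355 genes of the other types was 82 or 83 bases long, and 337 of them were shorter than 80. A SeC gene was not analysed here for its length.

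Long variable arm tRNAs were a small part of the serum tRNA reads in every library, and the kits disagreed on their amount and even more on which of them prevailed. NEBNext libraries gave mainly serine reads, of which the leading sequence of each library held 84.4% and 84.3%, whereas TruSeq and TailorMix libraries gave mainly leucine reads. In the NEBNext libraries, 21895 and 17645 reads fell on the group, or 0.0843% and 0.105% of tRNA reads. In the TruSeq libraries the counts were 19157 and 12230, or 0.170% and 0.134%. In the TailorMix libraries they were 11902 and 11444, or 0.242% and 0.226%. The libraries of the kits did not overlap, and the kit means were 0.0948% ± 0.0148 (SD, n = 2) for NEBNext, 0.152% ± 0.0256 for TruSeq and 0.234% ± 0.0116 for TailorMix. The highest mean was 2.47 times the lowest. A two-sided exact permutation test over the 15 groupings of 6 libraries into pairs gave p = 0.0667, the smallest p this design allows, and 0.0889 after Benjamini-Hochberg adjustment over the 4 shares tested (the group and its 3 types). The share of distinct tRNA sequences that carried these names was near constant, at 4.81% to 5.29% over the 6 libraries.

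Leucine tRNA accounted for 6106 and 3840 reads in the NEBNext libraries, which was 0.0235% and 0.0229% of tRNA reads. In the TruSeq libraries it accounted for 18634 and 11795 reads, or 0.166% and 0.129%. In the TailorMix libraries it accounted for 11025 and 10515 reads, or 0.224% and 0.208%. Both NEBNext libraries lay far below the other 4, and the TruSeq libraries lay below the TailorMix libraries. The means were 0.0232% ± 0.000427 (SD, n = 2), 0.147% ± 0.0256 and 0.216% ± 0.0119. Among the 21 types ordered by reads, Leu ranked 13 and 14 in NEBNext, 8 in both TruSeq libraries, and 8 and 9 in TailorMix. In edgeR's quasi-likelihood test on all 21 types, with tRNA reads as the library size, the log2 fold change of Leu was 2.67 (SE 0.17, adjusted p = 1.85e-22) in TruSeq against NEBNext and 3.22 (SE 0.18, adjusted p = 9.12e-26) in TailorMix against NEBNext. TailorMix exceeded TruSeq by a log2 fold change of 0.55 (SE 0.16, adjusted p = 0.00164 by edgeR), a difference that was -0.03 with the size factors of DESeq2 and lost its call without TruSeq library 2 (0.38, adjusted p = 0.0707 by edgeR) or without TailorMix library 1 (0.49, adjusted p = 0.0771 by edgeR). The error in this fit is shared over all types, so that adjusted p-values this small do not rest on the 6 values of a single type. The exact permutation test on the 6 Leu shares alone gave p = 0.0667 (adjusted 0.0889).

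Serine tRNA went the opposite way in NEBNext. It had 15606 and 13637 reads in the NEBNext libraries, or 0.0601% and 0.0813% of tRNA reads. It had 425 and 368 reads in the TruSeq libraries, or 0.00378% and 0.00404%. It had 792 and 838 reads in the TailorMix libraries, or 0.0161% and 0.0165%. Both NEBNext libraries were the highest, both TruSeq libraries the lowest, and no kits overlapped. The NEBNext mean of 0.0707% ± 0.0150 (SD, n = 2) was 18.1 times the TruSeq mean of 0.00391% ± 0.000183, with TailorMix between them at 0.0163% ± 0.000298. In the edgeR fit, Ser had a log2 fold change of -4.18 (SE 0.20, adjusted p = 1.95e-29) in TruSeq against NEBNext and of -2.11 (SE 0.18, adjusted p = 6.27e-17) in TailorMix against NEBNext. TailorMix exceeded TruSeq by 2.06 on the log2 scale (SE 0.19, adjusted p = 5.75e-16 by edgeR). TMM normalization, which leaves out the most divergent types when it scales libraries, gave smaller Ser differences of -2.77 and -0.61 from NEBNext and larger Leu differences of 4.08 and 4.72, all called. Over the 6 Ser shares the exact permutation test again gave its smallest p, 0.0667 (adjusted 0.0889).

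Selenocysteine tRNA, which reads UGA codons in selenoprotein mRNAs, was among the scarcest types, ranked between 17 and 20 of 21. It had 183 and 168 reads in NEBNext, 98 and 67 in TruSeq, and 85 and 91 in TailorMix. The lowest of these counts, 67 of 9119851 tRNA reads, was a share of 0.000735% with a 95% Wilson interval from 0.000579% to 0.000933%. Wilson intervals cover counting error only, whereas the intervals of fold changes from edgeR also take in the spread between libraries. The kit means were 0.000853% ± 0.000210 (SD, n = 2) in NEBNext, 0.000803% ± 0.0000963 in TruSeq and 0.00176% ± 0.0000468 in TailorMix. The TailorMix libraries lay above the other 4, and the NEBNext and TruSeq libraries overlapped. In the edgeR fit SeC was higher in TailorMix than in NEBNext (log2 fold change 1.06, SE 0.23, adjusted p = 3.07e-05) and than in TruSeq (1.13, SE 0.24, adjusted p = 2.25e-05), although DESeq2 did not call the latter (0.55, adjusted p = 0.110). TruSeq against NEBNext gave -0.06 with a 95% interval of -0.52 to 0.39 (adjusted p = 0.780 by edgeR), and this turned to 1.34 with TMM normalization, which called SeC higher in TruSeq (adjusted p = 8.77e-07), and to 0.62 with DESeq2 (adjusted p = 0.0543). The exact permutation test on the SeC shares gave p = 0.2.

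**Figure D1:**
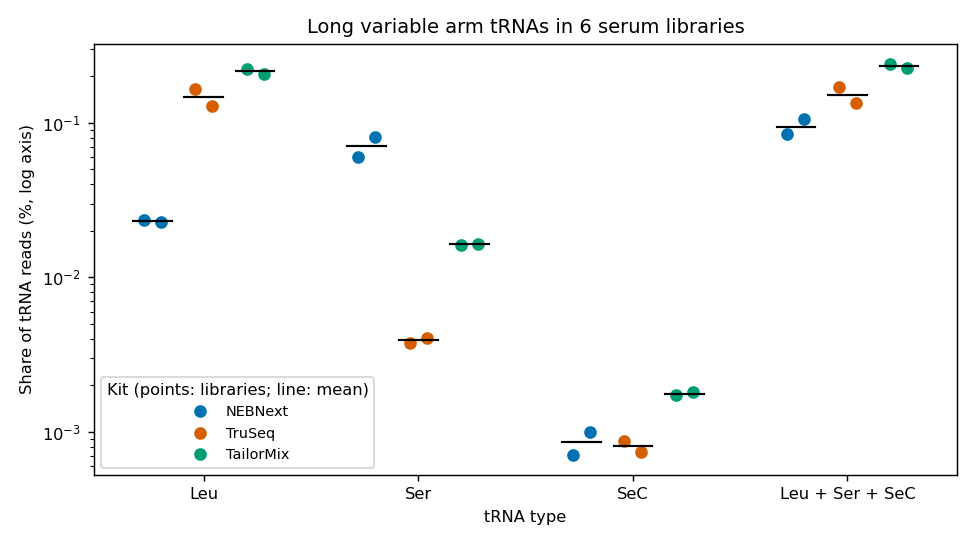
Share of a library's tRNA reads (%, log axis) on Leu, Ser and SeC tRNA and on the 3 together, with a point for each of the 6 libraries and a line at the mean of each kit. Leu was lowest in NEBNext (0.0232%) and Ser was highest there (0.0707%), and SeC separated only the TailorMix libraries from the others.

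Leu and Ser moved apart between NEBNext and each other kit, so that their ratio within a library differed there more than either share. Between TruSeq and TailorMix they did not move apart, since both were higher in TailorMix. The ratio of Leu to Ser reads needs no library size. Leu reads per Ser read came to 0.391 and 0.282 in NEBNext. TruSeq had 43.8 and 32.1, and TailorMix had 13.9 and 12.5. Leu therefore made up 27.9% and 21.8% of the long variable arm reads in NEBNext, 97.3% and 96.4% in TruSeq, and 92.6% and 91.9% in TailorMix. No libraries of different kits overlapped. The exact permutation test of the log2 ratio over the same 15 groupings gave p = 0.0667, its smallest.

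Shifts of this kind were common among tRNA types, so that the calls for Leu, Ser and SeC have to be read against them. In TruSeq against NEBNext, 1 of the 3 members was called higher and 1 lower at an adjusted p under 0.05, where 33.3% of all 21 types were called higher and 52.4% lower. In TailorMix against NEBNext, 2 members were called higher and 1 lower, with 28.6% and 38.1% of all types. In TailorMix against TruSeq all 3 members were called higher and 0 lower, with 57.1% and 33.3% of all types. Of the 18 other types, 6 and 10, 4 and 7, and 9 and 7 were called higher and lower in these contrasts, so that shifts between kits were called among tRNAs with a short variable loop too.

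Each type is a sum over anticodons, and the kits differed in these as well. Leucine reads spread over 5 anticodons, written here in DNA letters. Those of LeuCAG, which reads CUG, the leucine codon used most in mammals, were 50.2 and 64.7 RPM in the NEBNext libraries. They reached 1279 and 1049 RPM in TruSeq and 487 and 454 RPM in TailorMix. LeuCAG thus stood highest in both TruSeq libraries and lowest in both NEBNext libraries without overlap. It made up 79.2% ± 2.76 (SD, n = 2) of Leu reads in TruSeq, against 24.8% ± 4.87 in NEBNext and 21.8% ± 0.106 in TailorMix. In the edgeR fit over 47 anticodons, its log2 fold change was 4.34 (adjusted p = 0.000162) in TruSeq against NEBNext, 3.03 (adjusted p = 0.000644) in TailorMix against NEBNext and -1.31 (adjusted p = 0.00603) in TailorMix against TruSeq. RefSeq places 10 LeuCAG genes on GRCm38.p6, of which 5 lie on chromosome 1 between positions 171038614 and 171101920.

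LeuAAG, whose first anticodon base is known to be edited to inosine so that it reads CUU and CUC, was the main leucine anticodon of TailorMix. It had 155 and 93.6 RPM in NEBNext, 248 and 135 in TruSeq, and 1403 and 1287 in TailorMix. The TailorMix libraries stood above all others, while those of NEBNext and TruSeq overlapped. Its part of Leu reads was 62.2% ± 0.359 (SD, n = 2) in TailorMix, 53.5% ± 17.8 in NEBNext and 12.7% ± 3.24 in TruSeq. The log2 fold change was 3.43 (adjusted p = 0.00286 by edgeR) in TailorMix against NEBNext and 2.81 (adjusted p = 0.00396) against TruSeq. TruSeq against NEBNext gave 0.62 (adjusted p = 0.269 by edgeR), which was called with TMM (1.44, adjusted p = 0.0456 by edgeR) and with DESeq2 (1.19, adjusted p = 0.0145).

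LeuTAG, which reads CUA, was highest in TailorMix, as LeuAAG was. It had 25.2 and 66.3 RPM in NEBNext, 49.9 and 52.0 in TruSeq, and 325 and 311 in TailorMix. Only the TailorMix libraries stood apart, and the 2 TruSeq values lay between the 2 NEBNext values. Between the NEBNext libraries the anticodons went opposite ways, since LeuAAG had 155 RPM in library 1 and 93.6 in library 2. Whether a sequence present in genes of both anticodons was listed under either was not tested, so that LeuAAG and LeuTAG are uncertain when taken apart. TailorMix differed from NEBNext by a log2 fold change of 2.80 (adjusted p = 0.00688 by edgeR) and from TruSeq by 2.64 (adjusted p = 0.00685). TruSeq against NEBNext gave 0.16 (adjusted p = 0.841 by edgeR), which became a call without NEBNext library 2 (1.02, adjusted p = 0.00596).

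LeuCAA, which reads UUG, went with LeuCAG instead. It had 3.62 and 3.76 RPM in NEBNext, 78.6 and 56.6 in TruSeq, and 26.9 and 23.1 in TailorMix, without overlap between kits. The log2 fold change was 4.19 (adjusted p = 0.000117 by edgeR) in TruSeq against NEBNext, 2.76 (adjusted p = 0.000644) in TailorMix against NEBNext and -1.44 (adjusted p = 0.00317) in TailorMix against TruSeq. LeuTAA, which reads UUA, was barely sampled, with 6 to 21 reads per library, and no contrast passed the edgeR test with tRNA reads as library size. Its log2 fold change was 1.63 with a 95% interval of 0.08 to 3.19 (adjusted p = 0.0636 by edgeR) in TailorMix against NEBNext, and it was called with TMM (1.85, adjusted p = 0.0453) and with DESeq2 (1.75, adjusted p = 0.00188). TailorMix against TruSeq gave 1.52 (adjusted p = 0.0910 by edgeR), which was called with tRNA reads outside Glu, Gly, Val and His as library size (1.93, adjusted p = 0.0431). Without TailorMix library 2 both differences were called (2.13 and 2.02, adjusted p = 0.0269 and 0.0311 by edgeR), and without TailorMix library 1 they were 0.89 and 0.79 with no call.

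Serine reads fell on 4 anticodons, and SerTGA, which reads UCA, carried the NEBNext excess. It had 13492 and 12326 reads in the NEBNext libraries, or 519 and 735 RPM. It had 34 and 33 reads in TruSeq, or 3.02 and 3.62 RPM, and 449 and 59 reads in TailorMix, or 91.4 and 11.7 RPM. The kits did not overlap, but the TailorMix libraries differed from each other by 7.79-fold (with 0.5 added to each count), the widest gap between replicates among the member anticodons. SerTGA was 88.4% ± 2.78 (SD, n = 2) of Ser reads in NEBNext and 8.48% ± 0.684 in TruSeq. Its log2 fold change was -7.56 (SE 1.23, adjusted p = 0.00374 by edgeR) in TruSeq against NEBNext and -3.61 (SE 1.01, adjusted p = 0.0308) in TailorMix against NEBNext. TailorMix against TruSeq gave 3.95 (SE 1.05, adjusted p = 0.0232 by edgeR). The call against NEBNext was lost (adjusted p from 0.0531 to 0.124 by edgeR) without any 1 of the NEBNext or TruSeq libraries, and so was the call against TruSeq (adjusted p from 0.0668 to 0.110). The 2 TailorMix libraries set the size of both differences, which were -5.75 and 1.81 without library 1 and -2.78 and 4.78 without library 2, each still called. The 3 SerTGA genes in RefSeq on GRCm38.p6 are n-TStga1 (chromosome 13, 23518146 to 23518227), n-TStga2 (chromosome 13, 21924935 to 21925016) and n-TStga3 (chromosome 10, 63429476 to 63429557).

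SerAGA, which is edited to inosine like LeuAAG and reads UCU and UCC, mirrored SerTGA in the TailorMix libraries. It had 1018 and 376 reads in NEBNext, 291 and 253 in TruSeq, and 109 and 555 in TailorMix, or 22.2 and 110 RPM in the last. The library with few SerTGA reads was the one with many SerAGA reads. The kits overlapped, and no contrast passed the test for SerAGA. Without TailorMix library 1 it was called higher in TailorMix than in NEBNext (1.83, adjusted p = 0.0207 by edgeR) and than in TruSeq (2.03, adjusted p = 0.0151). When SerAGA and SerTGA were counted together, a choice made after seeing these values, the TailorMix libraries had 558 and 614 reads, or 114 and 121 RPM. The TruSeq libraries then had 325 and 286 reads (28.9 and 31.4 RPM), and the NEBNext libraries 14510 and 12702 (559 and 758 RPM). The kits did not overlap in this sum, whose log2 fold change was -4.45 (adjusted p = 5.54e-05 by edgeR) in TruSeq against NEBNext. It was -2.49 (adjusted p = 0.000476 by edgeR) in TailorMix against NEBNext and 1.96 (adjusted p = 0.000828) in TailorMix against TruSeq. A sequence present in genes of both anticodons can be listed under either, so that SerAGA and SerTGA are uncertain when taken apart.

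SerGCT, which reads AGC and AGU, was low in TruSeq alone. It had 40.7 and 54.3 RPM in NEBNext, 6.49 and 7.13 in TruSeq, and 45.4 and 38.7 in TailorMix. The NEBNext and TailorMix libraries overlapped and the TruSeq libraries lay below both. Its log2 fold change was -2.80 (adjusted p = 0.000271 by edgeR) in TruSeq against NEBNext and 2.63 (adjusted p = 0.000355) in TailorMix against TruSeq. TailorMix against NEBNext gave -0.17 with a 95% interval of -0.68 to 0.33 (adjusted p = 0.484 by edgeR), and the sign turned with TMM normalization (0.06). SerCGA, which reads UCG, had 11 to 39 reads per library and no contrast passed the edgeR test with tRNA reads as library size. Its log2 fold change in TailorMix against NEBNext was 1.37 (adjusted p = 0.0583 by edgeR) and became a call with TMM (1.59, adjusted p = 0.0398) and with DESeq2 (1.495, adjusted p = 0.00144), which also called TruSeq against NEBNext (1.099, adjusted p = 0.02004). The TailorMix libraries set the size of the differences of TailorMix from the other kits. Without TailorMix library 1, SerCGA was called higher in TailorMix than in NEBNext (1.88, adjusted p = 0.00832 by edgeR) and than in TruSeq (1.36, adjusted p = 0.0151), and without TailorMix library 2 the differences were 0.58 and 0.06 with no call. All SeC reads had the anticodon TCA, with log2 fold changes like those of the type. In the fit over anticodons, SeCTCA in TailorMix against TruSeq (1.13, adjusted p = 0.00917 by edgeR) lost its call with TMM (0.52, adjusted p = 0.0690), without TruSeq library 2 (1.02, adjusted p = 0.0571) and without sequences under 4 counts (0.99, adjusted p = 0.0589). The last setting also ended its call in TailorMix against NEBNext (0.88, adjusted p = 0.0875 by edgeR, against 1.05 and 0.0135).

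**Figure D2:**
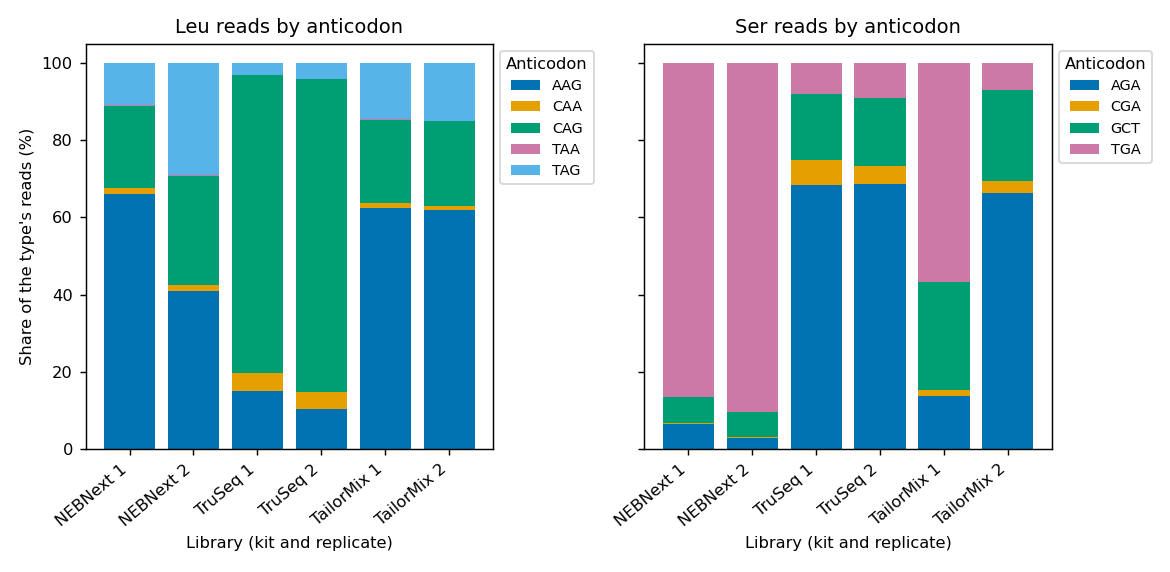
Share (%) of Leu reads (left) and of Ser reads (right) on each anticodon, with a stacked bar for each of the 6 libraries. LeuCAG filled 79.2% of the TruSeq bars on average and SerTGA 88.4% of the NEBNext bars, and the TailorMix libraries differed in how Ser reads were divided between AGA and TGA.

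The 10 member anticodons were set beside all 47 tested. In TruSeq against NEBNext, 2 of 10 were called higher (LeuCAA and LeuCAG) and 2 lower (SerGCT and SerTGA), where 19.1% and 42.6% of all anticodons were called. In TailorMix against NEBNext, 5 were called higher (LeuAAG, LeuCAA, LeuCAG, LeuTAG and SeCTCA) and 1 lower (SerTGA), where 23.4% and 38.3% of all were called. In TailorMix against TruSeq, 5 were called higher (LeuAAG, LeuTAG, SeCTCA, SerGCT and SerTGA) and 2 lower (LeuCAA and LeuCAG), where 38.3% and 25.5% of all were called. The median log2 fold change of the members was 0.14 in TruSeq against NEBNext, 1.504 in TailorMix against NEBNext and 1.41 in TailorMix against TruSeq. Over all 47 anticodons the medians were -0.20, -0.09 and 0.33. TMM normalization moved the latter to 0.61, 0.14 and -0.28, and those of the members to 0.97, 1.72 and 0.80. The split of all calls moved with it. In TruSeq against NEBNext 9 anticodons were called higher and 20 lower with tRNA reads as the library size, 16 and 14 with TMM, and 16 and 18 with DESeq2. In TailorMix against NEBNext 11 higher and 18 lower became 15 and 16 with TMM, and in TailorMix against TruSeq 18 and 12 became 14 and 17 with TMM and 18 and 18 with DESeq2.

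**Figure D3:**
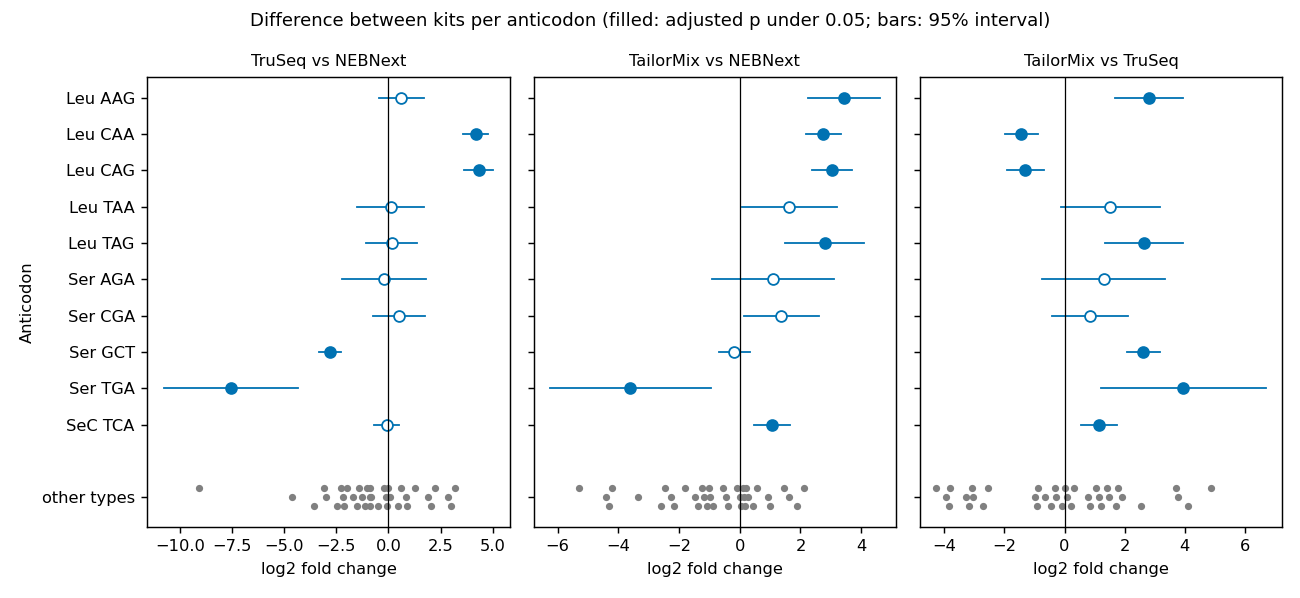
Log2 fold change of each member anticodon in the 3 contrasts between kits, with bars for the 95% interval and filled points for an adjusted p under 0.05 in edgeR, above grey points for the 37 anticodons of the other types. LeuCAG and LeuCAA were highest in TruSeq, LeuAAG and LeuTAG in TailorMix, and SerTGA lowest in TruSeq. The other types reached lower than the members in all 3 contrasts. Upward they reached 3.21 (ValCAC) in TruSeq against NEBNext and 2.13 (ArgTCT) in TailorMix against NEBNext, below the highest Leu anticodons, but above all members in TailorMix against TruSeq (AspGTC, 4.87).

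At the level of distinct sequences, the kits also differed in how far a single fragment made up the reads of a type. The most abundant Ser sequence had 13178 and 11499 reads in the NEBNext libraries, which was 84.4% and 84.3% of their Ser reads. It was listed under tRNA996-SerTGA in both, and whether it was the same sequence in both was not tested. In TruSeq the leading Ser sequence had 113 and 117 reads (26.6% and 31.8%) under tRNA992-SerAGA. In TailorMix it had 400 reads (50.5%) under tRNA112-SerTGA in library 1 and 432 reads (51.6%) under tRNA992-SerAGA in library 2. The replicates of a kit were thus alike in how concentrated Ser reads were, while the gene named differed in TailorMix.

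For Leu the order of the kits was reversed. The leading Leu sequence held 34.7% and 39.7% of Leu reads in TruSeq, with 6463 reads under tRNA1001-LeuCAG in library 1 and 4685 under tRNA698-LeuCAG in library 2. It held 15.7% and 15.4% in TailorMix, with 1733 and 1622 reads under tRNA2021-LeuAAG. It held 12.7% and 9.43% in NEBNext, with 777 reads under tRNA829-LeuAAG and 362 under tRNA401-LeuTAG. Leu reads were therefore most concentrated in TruSeq, where LeuCAG had its highest level, and Ser reads in NEBNext, where SerTGA had its highest level. LeuAAG was highest in TailorMix, with a mean of 1345 RPM, above the 1164 RPM of LeuCAG in TruSeq. Leu reads were less concentrated in TailorMix all the same. The leading SeC sequence had 10 to 27 reads and was listed under tRNA88-SeCTCA in all 6 libraries.

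The inverse Simpson index, which gives the number of equally abundant sequences that would be as diverse, put this on one scale. It was 1.40 in both NEBNext libraries for Ser, 9.63 and 7.70 in TruSeq, and 3.65 and 3.56 in TailorMix. For Leu it was 24.7 and 35.2 in NEBNext, 6.90 and 5.43 in TruSeq, and 15.7 in both TailorMix libraries. The kits did not overlap for either type. For SeC it lay between 8.42 and 20.3, on few reads. Because the number of distinct sequences grows with depth, it was also computed as the expectation at equal reads. At 360 Ser reads, 18.8 and 17.97 sequences were expected in NEBNext, 61.3 and 75.0 in TruSeq, and 41.6 and 45.2 in TailorMix. At 3840 Leu reads, 344 and 419 were expected in NEBNext and 190 to 196 in the other 4 libraries.

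**Figure D4:**
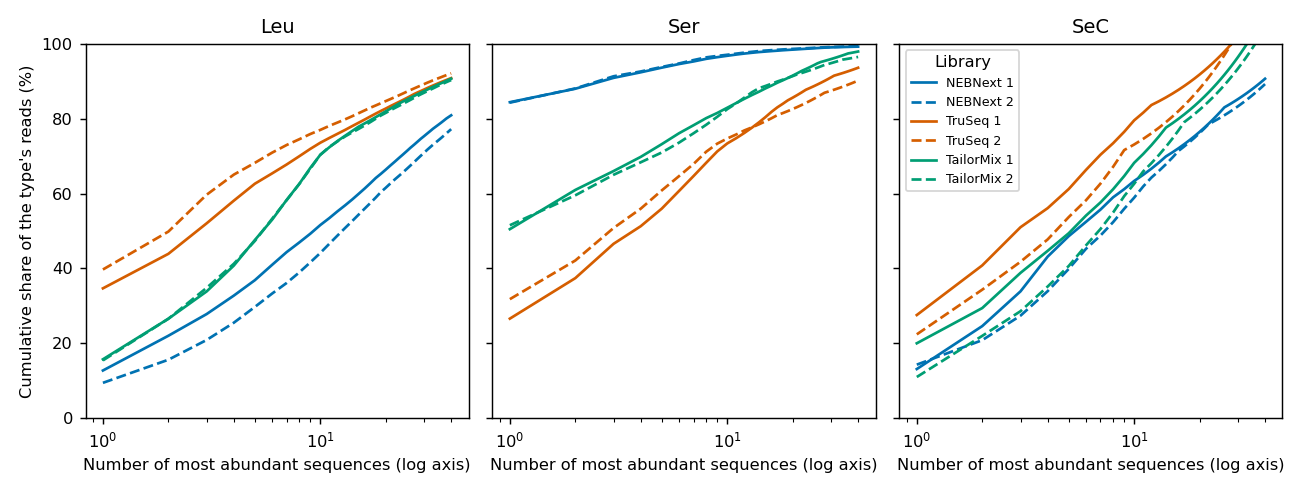
Cumulative share (%) of the reads of Leu, Ser and SeC tRNA held by the most abundant distinct sequences (number on a log axis), with a line for each of the 6 libraries. The leading sequence of each library held at least 84.3% of Ser reads in NEBNext and 34.7% or more of Leu reads in TruSeq, where the curves start highest.

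The difference between kits was recomputed without the leading sequence of each type in each library, a choice made after seeing the data. Since the sequence left out is the largest of each library, this lowers a type most where its reads were most concentrated, and the values describe the remaining reads only. Ser then had 2428 and 2138 reads in NEBNext, 312 and 251 in TruSeq, and 392 and 406 in TailorMix, or 0.00935% and 0.0128%, 0.00277% and 0.00275%, and 0.00799% and 0.00802% of tRNA reads. The order of the kits stayed, with smaller gaps. Its log2 fold change became -2.00 in TruSeq against NEBNext and -0.46 in TailorMix against NEBNext, where it had been -4.18 and -2.11. The change for Leu was smaller, to 2.17 and 3.14. Among the anticodons, SerTGA in TailorMix lost its calls against NEBNext (-1.502, adjusted p = 0.111 by edgeR) and TruSeq (1.70, adjusted p = 0.0939), and LeuCAG lost its call in TailorMix against TruSeq (-0.40, adjusted p = 0.191). Leu reads per Ser read became 2.19 and 1.63 in NEBNext, 39.0 and 28.3 in TruSeq, and 23.7 and 21.9 in TailorMix. Among the remaining reads, Leu thus outnumbered Ser in NEBNext as well.

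Individual gene names were a poor unit. Of the 50 names, 33 had reads in all 6 libraries (22 of 27 Leu, 10 of 21 Ser and 1 of 2 SeC). Between the 2 libraries of a kit, the median fold difference of gene names with at least 20 reads in the pair, after 0.5 was added to each count, was 4.07 in NEBNext, 1.74 in TruSeq and 3.61 in TailorMix. The same median over member anticodons was 1.37, 1.198 and 1.17. Differences over 2-fold occurred for 1 of 10 anticodons in NEBNext, 0 of 9 in TruSeq and 4 of 10 in TailorMix. Among gene names they occurred for 28 of 39, 15 of 34 and 20 of 33. In TruSeq tRNA1001-LeuCAG had 10597 reads in library 1 and 749 in library 2, while tRNA698-LeuCAG had 170 and 6098. In TailorMix tRNA112-SerTGA had 440 and 0 reads, where a count of 0 allows up to 3 reads, while tRNA992-SerAGA had 12 and 505. Genes of an anticodon share most of their sequence, and each distinct sequence was listed under a single name, so these counts cannot be assigned to a gene copy. The number in a name restarts on each chromosome, and the names were not matched to positions.

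The types whose share moved most like a member over the 6 libraries were sought among the other 18, as a description, since libraries share their kit. Ser was closest to phenylalanine tRNA (Pearson r = 0.971 on log2 shares, n = 6 libraries) and cysteine tRNA (r = 0.968). Cysteine tRNA had 3651 and 2987 reads in NEBNext, 142 and 133 in TruSeq, and 396 in each TailorMix library, the same order of kits by share as Ser. SeC was closest to asparagine (r = 0.981) and methionine tRNA (r = 0.824), which were also highest in both TailorMix libraries. Leu was closest to isoleucine (r = 0.767) and asparagine tRNA (r = 0.537). Isoleucine tRNA had another order of kits than Leu, with 0.00206% and 0.00192% in TruSeq above 0.00116% and 0.00101% in TailorMix. Among the members themselves r was -0.773 for Leu and Ser, 0.569 for Leu and SeC, and 0.07 for Ser and SeC. SeC was thus closer to Leu than asparagine tRNA was. The closest type of each member lay outside the group, but the 18 types there offered far more candidates than the members. This likeness therefore says nothing about the class of a tRNA.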

How the data were processed

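Small RNA was sequenced from 6 mouse serum libraries. The authors trimmed adaptors (cutadapt 1.8.1), discarded short reads and reads without adaptor, filtered on quality (FASTX-Toolkit), mapped without mismatches to GRCm38/mm10 (Bowtie 1.1.2) and annotated reads by genomic position. They deposited raw counts of each distinct sequence with its RNA class and the name of a single gene, not normalized. Depth is a library's tRNA total, given below with shares; 95% Wilson intervals express counting error alone, since reads carried no molecular identifiers.

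Counts were summed by amino acid in the gene name (tRNA type), anticodon and sequence (Python 3.11.15, pandas 2.3.3, numpy 2.4.6, scipy 1.17.1; figures with matplotlib 3.10.9). Kits were compared with edgeR 4.0.16 (R 4.3.3; glmQLFit, glmQLFTest) on all 21 types and on the 47 anticodons that reached 4 counts in 2 or more libraries, with all 6 libraries, kit as the only term, tRNA reads as library size and Benjamini-Hochberg adjustment (threshold 0.05). For shares, the F ratio between kits was set against all groupings of the libraries into pairs (exact permutation, two-sided). TMM, DESeq2 1.42.0, other library sizes and filters, a replicate block and single libraries left out were alternatives. Scripts were tested on simulated data. The 2 libraries of each kit differed by more than counting noise over the member anticodons (chi-square per degree of freedom 128 in NEBNext, 19.6 in TruSeq, 68.5 in TailorMix) and were counted as separate samples, as labelled. Named were the 3 types, each of their anticodons, the gene of the leading sequence per library and the 2 other types most like each member. The members and lists were chosen with earlier results of these data known. Reads on miRNAs entered only as part of the annotated total in an alternative library size.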

Additional observations from a re-analysis of the deposited data

How the results depend on the processing

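Depth limited SeC (67 to 183 reads per library), LeuTAA and SerCGA, and 2 libraries per kit limited every value. With the replicate block, a fit with serum number 1 or 2 as a term, Leu in TruSeq against NEBNext was 2.66 and no call for a type or anticodon changed. Whether same-numbered libraries share a serum is not stated, and they did not deviate together (r over 47 anticodons of 0.03, -0.35 and -0.14 for the 3 pairs of kits), so that the numbers were not used as pairs in the values reported.

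For the types, SeC in TruSeq against NEBNext turned positive with TMM (1.34, then called), with DESeq2 (0.62), without NEBNext library 2 (0.20) and without TruSeq library 2 (0.05), ranged from -0.31 to 0.20 over the fits without 1 library, and was called lower (-0.45, adjusted p = 0.0408 by edgeR) with tRNA reads outside Glu, Gly, Val and His as library size. Leu in TailorMix against TruSeq was -0.027 with DESeq2 and ranged from 0.38 to 0.74 without 1 library, losing its call without TruSeq library 2 or TailorMix library 1. SeC in TailorMix against TruSeq lost its call with DESeq2 (0.55). The other type contrasts kept direction and call in every alternative run. The member anticodons called higher in TruSeq against NEBNext were 4 with TMM and 5 with DESeq2, against 2. Those called lower in TailorMix against NEBNext were 0 when sequences under 4 counts were left out and without the leading sequences, and 0 to 1 without 1 library, against 1. Those called higher in TailorMix against TruSeq ranged from 3 (without TruSeq library 2) to 7 without 1 library, against 5, and those called lower were 1 without the leading sequences, against 2. The setting without leading sequences and the sum of SerAGA and SerTGA were chosen after seeing the data.

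Some single anticodons changed sign. In TruSeq against NEBNext, SeCTCA became 0.76 with TMM (adjusted p = 0.0241 by edgeR) and 0.52 with DESeq2 (adjusted p = 0.0282), called higher in both. SerAGA became 0.61 and 0.36, with no call. LeuTAA became -0.30 and LeuTAG -0.21 with the smaller library size, and without sequences under 4 counts LeuTAA became -0.22 and SerCGA -0.75. Without 1 library, SeCTCA ranged from -0.32 to 0.19, SerAGA from -0.55 to 0.26, LeuTAA from -0.46 to 0.56 and LeuTAG from -0.38 to 1.02. In TailorMix against NEBNext, SerGCT became 0.058 with TMM and SerAGA -0.41 without leading sequences. Without 1 library there, SerGCT ranged from -0.37 to 0.047 and SerAGA from -0.47 (without TailorMix library 2) to 1.83 (without TailorMix library 1). In TailorMix against TruSeq, SerAGA ranged from -0.27 to 2.03 without the same libraries. The cause of these changes was not tested.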
